A study of Homo sapiens with 9 samples.

Results

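The genes described are the 8 genes of cyclin-dependent kinase (CDK) inhibitors in the count table, taken by their gene symbols. They are CDKN1A, CDKN1B and CDKN1C (the CIP/KIP family, encoding p21, p27 and p57), CDKN2A, CDKN2B, CDKN2C and CDKN2D (the INK4 family, encoding p16, p15, p18 and p19), and CDKN3, a phosphatase gene. All 8 passed the filter on low counts, out of 16065 tested genes and 58929 genes in the table. RNA sequencing was performed in FaDu cells, a human line of head and neck squamous cell carcinoma (HNSCC) from the hypopharynx, recorded as wild type in the labels. The cells had received vehicle (DMSO) or 1 of 2 CDK7 inhibitors, samuraciclib or YKL-5-124, each at 250 nM, and every group had 3 libraries. The treatment time was 48 h in the treatment protocol and 72 h in the design of the series. The methods of the study call the 3 libraries of a group biological replicates, and all 9 come from 1 cell line.

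CDK inhibitors set the brake on cell division. INK4 proteins bind the kinases CDK4 and CDK6 and keep them from pairing with D-type cyclins, whereas CIP/KIP proteins bind complexes of CDK2 and CDK1 with cyclins E, A and B. When these kinases are held back, the retinoblastoma protein RB stays active and keeps E2F factors from switching on genes of DNA replication and mitosis. CDKN3 acts differently, since its product removes the activating phosphate on the T-loop of CDKs, the same phosphate that CDK7 places there as part of the CDK-activating kinase. CDK7 is also a subunit of TFIIH and acts there in transcription.

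Depth was 18096180 to 28018126 counts per library. All 11 epithelial markers were expressed, with a summed level of 10583 to 12274 CPM (a gene's rate among the counts of a library, after TMM scaling). Of the markers of other cell types, 5 of 6 fibroblast genes and all 5 immune genes had at most 20 counts in every library, whereas 2 of 3 endothelial genes passed the filter. In 3 libraries, 1 in each group (DMSO 3, samuraciclib 2 and YKL-5-124 2), the 7SL RNA gene RN7SL2 stood at 24.9 to 59.3 CPM, against 696 to 981 CPM in the other 6, and where the call of a named gene changed without these libraries both values are given. Since transcripts were counted in bulk, a change in the share of cells in a cell cycle phase and a change in RNA per cell cannot be told apart. Levels are relative to the other counts of a library, so the total RNA per cell was not measured.

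The promoters of 3 members are shown because CDKN1A and CDKN2B rose with both inhibitors and CDKN3 fell with samuraciclib. They are the bases before the transcription start, up to the first annotated exon there, taken from RefSeq (GRCh38.p14), and the strand is plus for CDKN1A and CDKN3 and minus for CDKN2B. Capitals mark GC boxes (GGGCGG on either strand), the CCAAT box and the CHR element (TTTGAA on either strand).
CDKN1A chr6:36678464-36678709: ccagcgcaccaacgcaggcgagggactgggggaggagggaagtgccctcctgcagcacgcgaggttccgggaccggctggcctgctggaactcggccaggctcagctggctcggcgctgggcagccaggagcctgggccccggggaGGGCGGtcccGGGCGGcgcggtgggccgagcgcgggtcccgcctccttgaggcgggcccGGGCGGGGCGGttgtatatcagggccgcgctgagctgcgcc
CDKN2B chr9:22009364-22009555: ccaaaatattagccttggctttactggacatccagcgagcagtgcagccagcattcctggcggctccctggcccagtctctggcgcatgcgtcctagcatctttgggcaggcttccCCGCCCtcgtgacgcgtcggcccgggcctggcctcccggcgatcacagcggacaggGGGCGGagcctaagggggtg
CDKN3 chr14:54396757-54396848: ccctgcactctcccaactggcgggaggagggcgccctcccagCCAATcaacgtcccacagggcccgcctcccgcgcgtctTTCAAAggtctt
The CDKN1A stretch lies inside the gene's annotated span, since transcripts with an earlier start exist. It held 4 GC boxes, of which the last 2 overlap, and the CDKN2B stretch held 2. Neither held a CCAAT box or a CHR element. The CDKN3 stretch held no GC box, 1 CCAAT box and 1 CHR element, read as TTCAAA on the printed strand. The stretches are 246, 192 and 92 bases long, so each was set beside stretches of its own length and position in 35116 windows before the starts of human genes. A GC box stood in 42.2% of those of 246 bases and 33.4% of those of 192 bases, and at 92 bases a CCAAT box stood in 11.4% and a CHR element in 6.09%. In full windows of 250 bases CDKN3 held 2 CCAAT boxes, as did CDKN1B, and CDKN2D and 1 start of CDKN2C held 1 each. GC boxes also stood before starts of CDKN1B, CDKN2A, CDKN2C and CDKN2D. The letters of an E2F site (TTTCCCGC or TTTGGCGC), an E-box (CACGTG) and a TATA box (TATAAA) were not found in the 3 stretches. In this order they stood in 1.9%, 6.22% and 10.7% of windows of 246 bases. The shares were 1.43%, 4.18% and 7.44% at 192 bases and only 0.618%, 1.72% and 4.24% at 92 bases. These are matches of letters, and binding was not measured.

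Levels of different genes were compared per length, as TPM, counts per base of the gene lengths in the table, scaled to an equal total in each library. In DMSO libraries CDKN3 stood highest at 146 ± 11.9 TPM (SD, n = 3), followed by CDKN1B at 88.2 ± 1.86 and CDKN2A at 50.7 ± 3.33 TPM. CDKN1A came next at 42.8 ± 1.91 TPM. CDKN2D (33.8 ± 6.05), CDKN2C (21.01 ± 2.24), CDKN2B (5.14 ± 0.346) and CDKN1C (2.14 ± 0.404 TPM) followed in that order, and no neighbours in it overlapped in their libraries. CDKN1A took the third place with both inhibitors. With samuraciclib its libraries overlapped those of CDKN1B, and those of CDKN2D overlapped those of CDKN2C. With YKL-5-124 the libraries of CDKN1A overlapped those of CDKN2A. CDKN1C, the lowest member in every group, had only 21 to 72 counts per library, and its values carry the largest counting error of the 8.

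**Figure D1:**
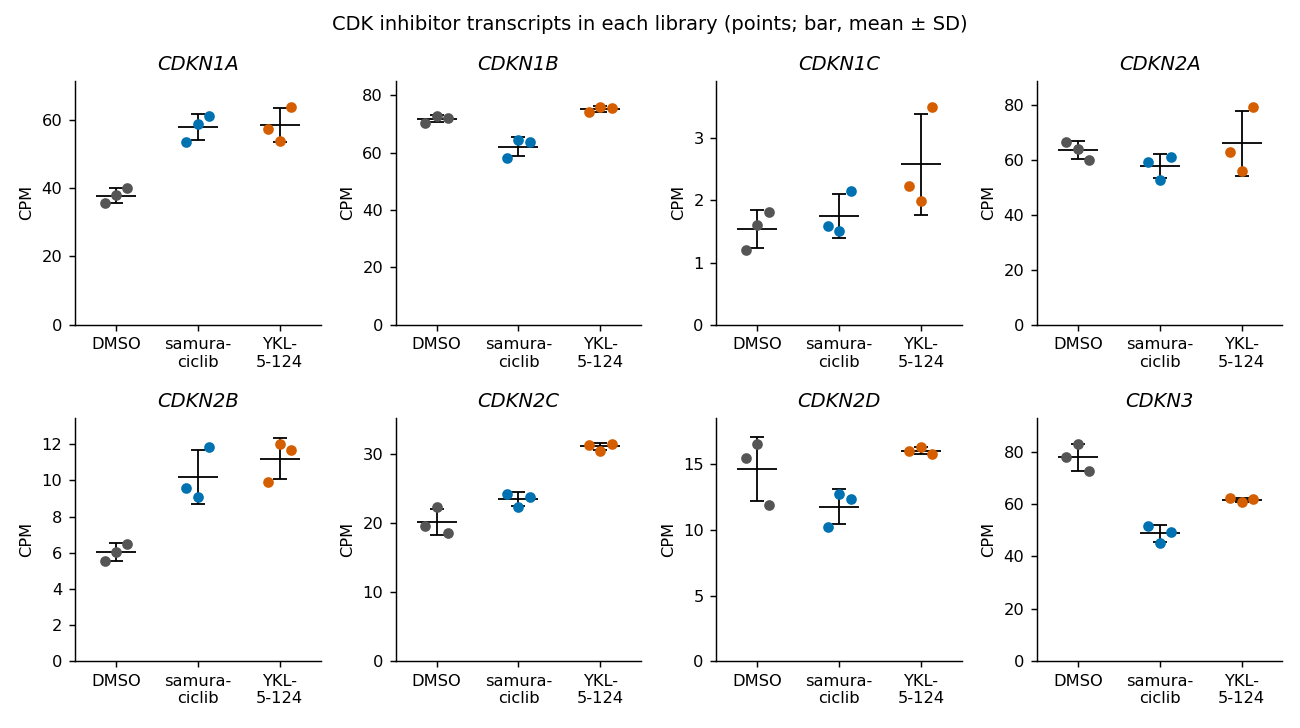
Level of each CDK inhibitor gene in CPM, 1 panel per gene, by treatment. Points are the 3 libraries of a group in the order of their numbers, and bars give the mean ± SD. CDKN1A and CDKN2B lie above DMSO in all libraries of both inhibitors and CDKN3 lies below, while CDKN2C is highest with YKL-5-124.

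CDKN1A (ENSG00000124762, chromosome 6, 36676460 to 36687339, plus strand, GRCh38) encodes p21, the CIP/KIP protein best known for halting the cell cycle after DNA damage. It measured 35.7, 37.9 and 40.0 CPM in the DMSO libraries 1 to 3. With samuraciclib the values were 53.6, 58.7 and 61.1 CPM, and with YKL-5-124 57.4, 53.9 and 63.7 CPM. Every inhibitor library lay above every DMSO library, and the libraries of the inhibitors overlapped each other. CDKN1A rose 1.54-fold with YKL-5-124 (log2 fold change 0.62 ± 0.071, SE, adjusted p = 9.56e-07 by edgeR's quasi-likelihood test) and 1.52-fold with samuraciclib (0.61 ± 0.071, adjusted p = 1.62e-06). Here and below, a gene is said to rise or fall where its log2 fold change passed 0.5 in size at an adjusted p below 0.05 over all tested genes. Between the inhibitors, at the same 250 nM, the difference was 0.01 with a 95% interval of -0.13 to 0.16 (adjusted p = 0.914). The lncRNA gene DINOL overlaps CDKN1A on the opposite strand and had 0 to 2 counts per library.

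CDKN1B (ENSG00000111276, chromosome 12, 12715058 to 12722371, plus strand) encodes p27, a CIP/KIP protein whose amount is known to be set largely by its degradation. Its levels were 70.5, 72.8 and 72.1 CPM in DMSO, 58.2, 64.3 and 63.8 CPM with samuraciclib and 74.1, 75.8 and 75.7 CPM with YKL-5-124. The 3 groups did not overlap. All samuraciclib libraries were the lowest and all YKL-5-124 libraries the highest, though the distance to DMSO was small. The difference from DMSO was -0.21 ± 0.052 with samuraciclib (adjusted p = 0.00300) and 0.07 ± 0.052 with YKL-5-124 (adjusted p = 0.294), and neither reached the fold threshold. The inhibitors differed by 0.28 ± 0.052 (adjusted p = 8.41e-04), also below the fold threshold. A gene model on the same strand, AC008115.3, shares 549 bases with CDKN1B and had 27 to 66 counts.

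CDKN1C (ENSG00000129757, chromosome 11, 2883213 to 2885773, minus strand) encodes p57, an imprinted CIP/KIP gene. It stood at 1.20, 1.60 and 1.81 CPM in DMSO, at 1.59, 1.504 and 2.16 CPM with samuraciclib and at 2.24, 2.00 and 3.50 CPM with YKL-5-124. The YKL-5-124 libraries lay above DMSO, with replicate 3 well above the other two, while those of samuraciclib overlapped DMSO. The rise with YKL-5-124 (1.64-fold, 0.71 ± 0.25, adjusted p = 0.0256 by edgeR) was not called by DESeq2 (adjusted p = 0.0684). It was also lost without YKL-5-124 replicate 3 (0.44, adjusted p = 0.192), without DMSO replicate 1 (0.58, adjusted p = 0.100) and without DMSO replicate 2 (0.73, adjusted p = 0.0579). In the 6 libraries without low 7SL RNA it was 1.03 (adjusted p = 0.00955 by edgeR). With samuraciclib the difference was 0.16 ± 0.27 (adjusted p = 0.660), or 0.41 (adjusted p = 0.358) in those 6 libraries, and between the inhibitors it was 0.56 with an interval of 0.03 to 1.08 (adjusted p = 0.113).

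CDKN2A (ENSG00000147889, chromosome 9, 21967753 to 21995301, minus strand) encodes p16 and, from another first exon and reading frame, the MDM2 inhibitor p14ARF. Counts per gene do not separate these transcripts. The DMSO libraries held 66.5, 63.9 and 60.0 CPM, those of samuraciclib 59.3, 52.8 and 61.1 CPM and those of YKL-5-124 62.8, 56.1 and 79.2 CPM. The groups overlapped, and YKL-5-124 replicate 3 was the highest of the 9. The difference from DMSO was 0.06 (95% interval -0.14 to 0.25, adjusted p = 0.640) with YKL-5-124, and -0.09 without that replicate. With samuraciclib it was -0.14 (interval -0.33 to 0.06, adjusted p = 0.253), and between the inhibitors 0.19 ± 0.093 (adjusted p = 0.143). The latter was 0.24 (adjusted p = 0.0272 by edgeR) in the 6 libraries without low 7SL RNA.

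CDKN2B (ENSG00000147883, chromosome 9, 22002903 to 22009363, minus strand), the neighbour of CDKN2A, encodes p15, known as a target of TGF-beta signalling. Its DMSO libraries held 5.55, 6.07 and 6.52 CPM. Those of samuraciclib held 9.59, 9.07 and 11.9 CPM and those of YKL-5-124 9.94, 12.0 and 11.7 CPM. All 6 inhibitor libraries lay above all DMSO libraries, with overlap between the inhibitors. CDKN2B rose 1.85-fold with YKL-5-124 (0.89 ± 0.13, adjusted p = 1.32e-05) and 1.67-fold with samuraciclib (0.74 ± 0.13, adjusted p = 1.25e-04). The direct difference was 0.15 with an interval of -0.10 to 0.40 (adjusted p = 0.404). The antisense gene CDKN2B-AS1 (ANRIL) covers the whole span of CDKN2B and 524 bases at the 5′ side of CDKN2A, and had 7 to 14 counts per library, against 97 to 307 for CDKN2B. Whether reads were counted by strand is not stated, so antisense reads could not be set apart.

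CDKN2C (ENSG00000123080, chromosome 1, 50960745 to 50974633, plus strand) encodes p18. It measured 19.6, 22.3 and 18.6 CPM in DMSO, 24.3, 22.4 and 23.8 CPM with samuraciclib and 31.3, 30.5 and 31.5 CPM with YKL-5-124. The groups formed 3 separate levels, DMSO lowest and YKL-5-124 highest, and the closest libraries, DMSO 2 and samuraciclib 2, nearly met. It rose 1.54-fold with YKL-5-124 (0.63 ± 0.077, adjusted p = 2.48e-06). With samuraciclib the difference was 0.22 ± 0.079 (adjusted p = 0.0289), inside the fold threshold, and 0.20 (adjusted p = 0.106) when the 3 libraries low in 7SL RNA were left out. The inhibitors differed by 0.40 ± 0.076 (adjusted p = 8.77e-04).

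CDKN2D (ENSG00000129355, chromosome 19, 10566462 to 10569059, minus strand) encodes p19. The libraries stood at 15.5, 16.6 and 11.9 CPM in DMSO, 10.2, 12.7 and 12.3 CPM with samuraciclib and 16.0, 16.3 and 15.8 CPM with YKL-5-124. DMSO replicate 3, a library low in 7SL RNA, lay among the samuraciclib values, and the YKL-5-124 libraries lay above all samuraciclib libraries. Against DMSO the difference was -0.31 ± 0.12 with samuraciclib (adjusted p = 0.0428), and -0.51 (adjusted p = 0.00127), past both thresholds, in the 6 libraries without low 7SL RNA. With YKL-5-124 it was 0.14 ± 0.11 (adjusted p = 0.333), and -0.02 in those 6 libraries. The inhibitors differed by 0.45 ± 0.12 (adjusted p = 0.00928). This difference passed the fold threshold without samuraciclib replicate 2 (0.51), and its adjusted p was 0.0601 without samuraciclib replicate 1 (0.35).

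CDKN3 (ENSG00000100526, chromosome 14, 54396849 to 54420218, plus strand) encodes the CDK phosphatase KAP and is known to be expressed late in the cell cycle. DMSO libraries held 77.9, 82.9 and 72.5 CPM, those of samuraciclib 51.8, 45.3 and 49.4 CPM and those of YKL-5-124 62.3, 60.7 and 61.8 CPM. The 3 groups did not overlap, with samuraciclib lowest and YKL-5-124 between. CDKN3 fell 1.59-fold with samuraciclib (-0.67 ± 0.061, adjusted p = 9.09e-08). With YKL-5-124 the difference was -0.33 ± 0.060 (adjusted p = 1.63e-04), inside the fold threshold. The direct difference of 0.34 ± 0.062 (adjusted p = 7.67e-04) was of about the same size.

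With YKL-5-124, 4 of the 8 CDK inhibitor genes rose (50% of the members), CDKN1A, CDKN1C, CDKN2B and CDKN2C, where 11.9% of all tested genes rose and 21.8% changed in either direction. None of the 8 fell by edgeR or by DESeq2, against 9.93% of all genes, and 1 (CDKN3) was lower at an unadjusted p under 0.05. At an adjusted p below 0.05 alone, 25.2% of all genes were lower, so the unadjusted share was at least that. DESeq2 called 3 rises, against 8.46% of all genes higher and 8.14% lower by that tool. The groups did not overlap for 6 of the 8 genes, against 56.8% of all genes, and the median log2 fold change of the 8 was 0.38 beside 0.01 for all genes. With samuraciclib, 2 rose (CDKN1A and CDKN2B) and 1 fell (CDKN3), together 37.5% of the members, against 17.7% of all genes called, 8.17% higher and 9.55% lower. Here 5 of 8 did not overlap with DMSO, against 52.9% of all genes, and the median was 0.01 beside 0.0012 for all genes. In the 6 libraries without low 7SL RNA, 4 members were called with each compound, against 20.2% of all genes with YKL-5-124 and 16.2% with samuraciclib, CDKN2D being the added fall with samuraciclib. Both comparisons share the DMSO libraries.

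In the direct comparison of YKL-5-124 with samuraciclib, edgeR and DESeq2 called none of the 8 genes, against 6.92% of all genes by edgeR (4.46% higher and 2.46% lower) and 5.35% by DESeq2. At an unadjusted p under 0.05, 5 members were higher with YKL-5-124. At least 11.8% of all genes were too, the share higher at an adjusted p below 0.05. For 4 of the 5 members, CDKN1B, CDKN2C, CDKN2D and CDKN3, the adjusted p was below 0.05, a rule that 24.9% of all genes met. Their log2 differences lay between 0.28 and 0.45. The same 4 did not overlap between the inhibitors, against 38.7% of all genes. The median of the 8 genes was 0.31 beside 0.01 for all genes. CDKN1A and CDKN2B, the members that rose with both compounds, overlapped between them.

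**Figure D2:**
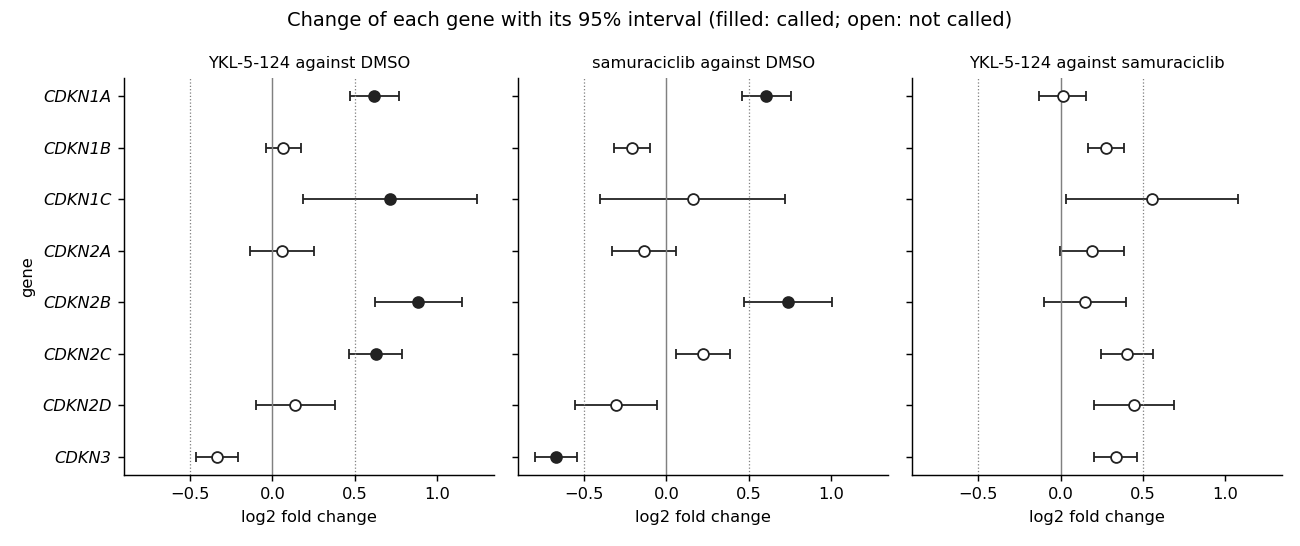
Log2 fold change of each CDK inhibitor gene with its 95% interval in 3 comparisons of 3 with 3 libraries (edgeR). Filled points were called, open points were not, and dotted lines stand at the threshold of 0.5. CDKN1A (0.62 and 0.61) is nearly equal with both inhibitors, and all 8 estimates of the direct comparison lie at or above 0.01.

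Within a library, ratios of TPM do not depend on the scaling of libraries, so the inhibitors were set beside kinases they bind. The CIP/KIP genes were set beside CDK1 and CDK2 alone. The ratio of summed CIP/KIP transcripts to those of CDK1 and CDK2 was 0.452, 0.464 and 0.468 in DMSO. It was 0.663, 0.698 and 0.738 with samuraciclib and 0.808, 0.713 and 0.851 with YKL-5-124. Both inhibitors lay above DMSO in every library and overlapped each other. The CIP/KIP sum itself was 133 ± 3.19 TPM (SD, n = 3) in DMSO, 147 ± 12.4 with samuraciclib, where it overlapped DMSO, and 176 ± 9.75 with YKL-5-124, where it did not. The sum of CDK1 and CDK2 went from 289 ± 3.61 to 209 ± 6.54 with samuraciclib and 223 ± 10.8 TPM with YKL-5-124. The ratio of summed INK4 transcripts to CDK4 and CDK6 was 0.467, 0.476 and 0.443 in DMSO, 0.490, 0.497 and 0.507 with samuraciclib and 0.697, 0.624 and 0.729 with YKL-5-124. This ratio separated the 3 groups, with a wide step at YKL-5-124 and a narrow one at samuraciclib. The INK4 sum includes CDKN2A, whose counts do not separate p16 from the MDM2 inhibitor p14ARF, so it is not a sum of CDK4 and CDK6 inhibitors alone. The INK4 sum was 111 ± 10.7, 108 ± 9.22 and 143 ± 12.1 TPM in DMSO, samuraciclib and YKL-5-124, and only YKL-5-124 stood apart from DMSO. CDK4 and CDK6 summed to 239 ± 14.7, 217 ± 15.5 and 209 ± 7.87 TPM. Unlike the ratios, these TPM sums depend on the scaling of libraries and lack the TMM factors used for the calls. From DMSO to YKL-5-124, CDKN1B, which was not called, went from 88.2 to 100.3 TPM but from 71.8 to 75.2 CPM. With 3 against 3 libraries, no two-sided permutation test can go below p = 0.10, so the ratios are given as a description.

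Within the families, CDKN1A gained on CDKN1B. The ratio of CDKN1A to CDKN1B was 0.486 ± 0.0228 (SD, n = 3) in DMSO, 0.858 ± 0.0215 with samuraciclib and 0.715 ± 0.0602 with YKL-5-124, with no overlap between groups. CDKN1A made up 32.2% ± 0.926 of CIP/KIP transcripts in DMSO, 45.4% ± 0.479 with samuraciclib and 40.7% ± 1.77 with YKL-5-124. Among the INK4 transcripts CDKN2A was the most abundant gene in every group, with 45.9% ± 2.25, 43.3% ± 2.10 and 39.9% ± 4.26 in the same order. CDKN2C went from 19.0% ± 0.983 to 23.0% ± 1.08 and 24.7% ± 1.42, and CDKN2B from 4.69% ± 0.735 to 8.13% ± 0.789 and 7.28% ± 0.855. The ratio of CDKN3 to CDK1 was 0.823 ± 0.0569, 0.787 ± 0.0595 and 0.925 ± 0.0716, and its groups overlapped.

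**Figure D3:**
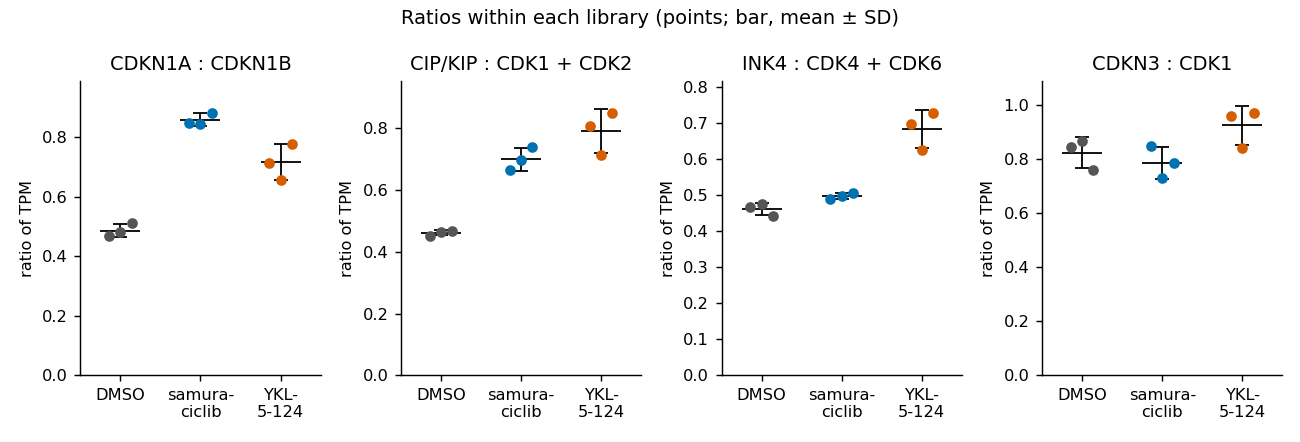
Ratios of TPM within each library for 4 pairs of genes or gene groups, by treatment, with points for the 3 libraries and bars for the mean ± SD. CDKN1A to CDKN1B and INK4 to CDK4 and CDK6 separate all 3 groups, whereas CDKN3 to CDK1 overlaps.

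The kinases and cyclins that INK4 proteins oppose were CDK4, CDK6 and the 3 D-type cyclins. Of these 5 genes, 1 fell with YKL-5-124, CDK6 (-0.53 ± 0.055, adjusted p = 2.96e-07), a call lost without DMSO replicate 3 (-0.48), without YKL-5-124 replicate 3 (-0.49) and with library size as the only scale (-0.40). With samuraciclib CDK6 stood at -0.27 ± 0.055 and CCND2 rose (0.85 ± 0.046), and CCND2 was lower with YKL-5-124 than with samuraciclib (-0.54 ± 0.045). CDK4 stood at -0.27 ± 0.054 and -0.15 ± 0.054 with YKL-5-124 and samuraciclib. CCND1, with 1489 CPM in DMSO the most counted cyclin D gene, stood at -0.05 ± 0.048 and -0.09 ± 0.048. Beside this list and each later one stand the shares of all tested genes, 11.9% higher and 9.93% lower with YKL-5-124. With samuraciclib they were 8.17% higher and 9.55% lower.

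Among the 8 kinases and cyclins that CIP/KIP proteins oppose, 2 fell with YKL-5-124 and 3 with samuraciclib, where 9.93% and 9.55% of all tested genes fell. CCNA1 (-0.59 ± 0.093) and CCNA2 (-0.51 ± 0.050) fell with YKL-5-124, and CCNA1 (-0.52 ± 0.093), CCNB1 (-0.64 ± 0.047) and CDK1 (-0.61 ± 0.049) with samuraciclib. CDK1, the main mitotic kinase, stood just inside the threshold with YKL-5-124 (-0.498 ± 0.049) and was called by DESeq2, in the 6 libraries without low 7SL RNA (-0.55), without DMSO replicate 1 (-0.52) and without YKL-5-124 replicate 2 (-0.56). The call of CCNA2 was lost without DMSO replicate 2 or 3 or YKL-5-124 replicate 3 (-0.50, -0.50 and -0.48), and that of CCNA1 with samuraciclib without DMSO replicate 3 (-0.49) and without the libraries low in 7SL RNA (-0.48). CDK2 stood at -0.47 ± 0.053 and -0.31 ± 0.053 with YKL-5-124 and samuraciclib, and passed the threshold with YKL-5-124 without the libraries low in 7SL RNA (-0.51) and without YKL-5-124 replicate 2 (-0.52). CCNE1 stood at -0.16 ± 0.094 and 0.24 ± 0.092. No gene of this list rose by edgeR or DESeq2. At an unadjusted p under 0.05, 1 was higher with samuraciclib and 0 with YKL-5-124, against at least 21% and 24.1% of all genes. Of the CDK-activating kinase, CDK7 with CCNH and MNAT1, no gene was called by either tool. At an unadjusted p under 0.05, 2 were lower with YKL-5-124 and 1 with samuraciclib, against at least 25.2% and 23.1% of all genes. Each such minimum is the share at an adjusted p below 0.05.

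Of 13 genes of RB pocket proteins and E2F factors, which act after CDK inhibitors in the pathway, 3 fell with each compound. They were RBL1, E2F1 and E2F2 in both cases, where 9.93% of all tested genes fell with YKL-5-124 and 9.55% with samuraciclib. The part of the CDK inhibitor genes in these falls was not tested. RBL1, which encodes the pocket protein p107, stood at -0.72 ± 0.057 with YKL-5-124 and -0.82 ± 0.057 with samuraciclib. E2F1 stood at -0.57 ± 0.049 and -0.78 ± 0.049, and E2F2 at -0.78 ± 0.10 and -0.88 ± 0.10. Of 25 mitotic genes expressed late in the cell cycle like CDKN3, 5 fell with YKL-5-124 and 8 with samuraciclib. The shares of all tested genes that fell were 9.93% and 9.55%. TOP2A (-1.29 ± 0.059 and -0.87 ± 0.059), CDC20 (-0.83 ± 0.050 and -0.9967 ± 0.050) and KIF20A (-0.87 ± 0.055 and -1.01 ± 0.056) were among these mitotic genes with YKL-5-124 and samuraciclib. Of 5 phosphatases and kinases of the CDC25 and WEE1 families, PKMYT1, an inhibitory kinase of CDK1, fell with YKL-5-124 (-0.67 ± 0.061). None was called with samuraciclib by edgeR or DESeq2, and 4 had an unadjusted p under 0.05. With samuraciclib, 44.1% of all genes had an adjusted p below 0.05, so the unadjusted share was at least that.

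The amounts of p21, p27 and p57 also depend on ubiquitin ligases. Of 16 genes of their degradation, 2 fell with YKL-5-124 and 3 with samuraciclib, where 9.93% and 9.55% of all tested genes fell. PCNA, a cofactor in p21 degradation, fell with both compounds (-0.76 ± 0.052 with YKL-5-124 and -0.53 ± 0.051 with samuraciclib), as did CDC20. COPS5 fell with samuraciclib (-0.51 ± 0.055), a call lost without samuraciclib replicate 1 or DMSO replicate 2 (-0.48 each). SKP2, the substrate receptor for p27, stood at -0.49 ± 0.054 and -0.37 ± 0.054, and its cofactor CKS1B at -0.35 ± 0.044 and -0.41 ± 0.045 with YKL-5-124 and samuraciclib. All 4 values had an adjusted p of at most 1.70e-05 and lay inside the fold threshold, which SKP2 passed with YKL-5-124 by DESeq2 (-0.51) and without DMSO replicate 2 or 3 or YKL-5-124 replicate 1 or 3 (-0.50 to -0.51). MDM2, which encodes a ubiquitin ligase, stood at -0.22 ± 0.058 with YKL-5-124 and 0.0041 ± 0.057 with samuraciclib.

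**Figure D4:**
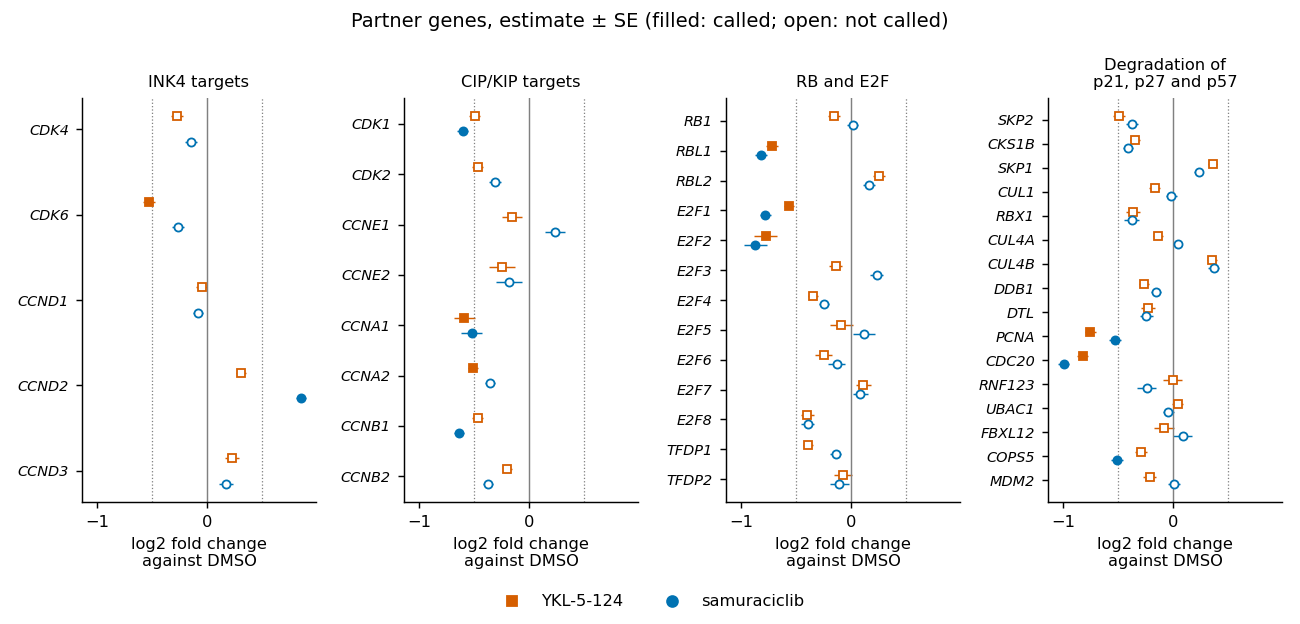
Log2 fold changes against DMSO, with SE, of the genes of kinases and cyclins that CDK inhibitors bind, of RB and E2F proteins and of the degradation of p21, p27 and p57, for YKL-5-124 (squares) and samuraciclib (circles). Filled symbols were called and dotted lines stand at 0.5 in size. RBL1, E2F1, E2F2, PCNA and CDC20 are filled with both compounds, and CCND2 with samuraciclib (0.85) lies on the other side.

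For the INK4 locus, 1 of 18 genes of Polycomb and other regulators fell with each compound, and it was ID1, a repressor known to act on CDKN2A (-0.86 ± 0.059 with YKL-5-124 and -0.71 ± 0.059 with samuraciclib). CDKN2B-AS1 stood at 0.32 ± 0.38 and 0.30 ± 0.38. Of 20 SMAD, FOXO, KLF, SP1 and MYC/MIZ1 regulators of CIP/KIP genes and CDKN2B, 19 were tested, and SMAD4 had 0 counts in all 9 libraries. In this list 3 rose and 1 fell with YKL-5-124 and 2 rose with samuraciclib. Of all tested genes, 11.9% rose and 9.93% fell with YKL-5-124, and 8.17% rose with samuraciclib. TGFB2, a ligand of the pathway that induces CDKN2B, rose with both (1.19 ± 0.11 with YKL-5-124 and 1.22 ± 0.11 with samuraciclib). Its paralog TGFB1 fell with YKL-5-124 (-0.62 ± 0.078), and the receptor gene TGFBR2 rose with samuraciclib (0.61 ± 0.053). FOXO4 (0.73 ± 0.23) and FOXO6 (1.03 ± 0.37), at 9 to 31 counts in the case of FOXO6, rose with YKL-5-124, and both calls were lost without DMSO replicate 1 and by DESeq2. FOXO4 also lost its call without the libraries low in 7SL RNA (0.81). FOXO6 also lost its call without DMSO replicate 2 or YKL-5-124 replicate 3 (0.91 and 0.84). MYC, a repressor of CDKN1A and CDKN2B, stood at -0.32 ± 0.053 and -0.15 ± 0.053. The part of these regulators, TGFB2 included, in the changes of CDKN2B and the other members was not tested.

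Of 17 genes that lie beside the CDK inhibitor genes, 1 rose and 1 fell with each compound. Both lie next to CDKN1B, which itself was not called. APOLD1 rose with YKL-5-124 (1.19 ± 0.14) and samuraciclib (1.01 ± 0.14). GPR19 fell (-2.26 ± 0.52 and -1.84 ± 0.497) at 1 to 22 counts per library, and its call with samuraciclib was lost without the libraries low in 7SL RNA (-1.39).

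Some calls of these partner and regulator genes lay close to the threshold. With library size as the only scale, the calls of CCNA1 (-0.46), CCNA2 (-0.38), E2F1 (-0.44) and TGFB1 (-0.49) with YKL-5-124 were lost. So were those of CCNA1 (-0.46), PCNA (-0.47) and COPS5 (-0.45) with samuraciclib and of CCND2 in the direct comparison (-0.47). With a mean count of at least 50 the calls of CDK6 (-0.49) and CCNA2 (-0.48) with YKL-5-124 and of COPS5 with samuraciclib (-0.49) were lost, and with protein-coding genes only that of CCNA2 (-0.49).

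The epithelial markers also moved. CDH1 rose with both compounds (0.9963 ± 0.047 with YKL-5-124 and 0.80 ± 0.047 with samuraciclib), as did KRT17 (0.60 ± 0.045 with each). Of the 11, 2 rose and 1 fell (KRT14, -0.50 ± 0.090) with YKL-5-124, and 3 rose with samuraciclib. The value of KRT14 lay at the threshold, and its call was lost without DMSO replicate 2 (-0.47), without YKL-5-124 replicate 3 (-0.42) and in a fit of only DMSO and YKL-5-124 (-0.49). It was also lost with library size as the only scale (-0.37), a mean count of at least 50 (-0.46) and protein-coding genes only (-0.48). The endothelial marker CDH5 fell with samuraciclib (-0.50 ± 0.081), a call lost without DMSO replicate 3 (-0.48), samuraciclib replicate 3 (-0.42) or the libraries low in 7SL RNA (-0.496). The same 3 settings that lost KRT14 lost it (-0.44, -0.48 and -0.4965), as did counts thinned to the smallest library (-0.45). The part of these markers in the changes of the CDK inhibitor genes was not tested.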

How the data were processed

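Poly(A)-selected RNA of FaDu cells was sequenced in read pairs. Per the labels and methods, the authors aligned to GRCh38 with HISAT2 and counted reads on a GENCODE annotation with featureCounts 2.0.6. The annotation release and strand setting are not given in the sources used here. The deposited values were whole counts per gene, with no normalization, for 58929 genes. The 8 genes and all gene lists were chosen with earlier results of these data known.

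Genes were filtered (filterByExpr), scaled (TMM) and tested in 1 fit of all 9 libraries with edgeR 4.0.16 (glmQLFit, glmQLFTest, two-sided), which left 16065 genes. Calls required a Benjamini-Hochberg adjusted p below 0.05 over these genes and a log2 fold change beyond 0.5. The study's methods used DESeq2, run here (1.42.0) among 22 alternatives. SE was the log2 fold change divided by the square root of F. Depth was 18096180 to 28018126 counts per library. TPM used the gene lengths of the table.

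Named genes were the 8 members, up to 4 called genes per list and comparison by smallest adjusted p, and CDK1, CDK2, CDK4, CDK6, CCND1, CCNE1, CCNA2, SKP2, CKS1B, MDM2 and MYC. A gene and the list that holds it are not reported here. The 3 protein-coding genes with the highest Pearson's r of log2 CPM were named for each member. The fit was tested on simulated data. R 4.3.3 and Python 3.11.15 were used.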

Additional observations from a re-analysis of the deposited data

Results flagged for a closer look

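Of the 8 genes, 4 differed between the inhibitors by the direct test, with an adjusted p below 0.05 by edgeR, although none reached the fold threshold. All 4 were higher with YKL-5-124 than with samuraciclib in 3 of 3 libraries. CDKN1B differed by 0.28 on the log2 scale (adjusted p = 8.41e-04), with samuraciclib libraries below and YKL-5-124 libraries above those of DMSO. Its difference between YKL-5-124 and DMSO was only 0.07 (adjusted p = 0.294 by edgeR). CDKN2C differed by 0.40 (adjusted p = 8.77e-04), and both inhibitors lay above DMSO. CDKN2D differed by 0.45 (adjusted p = 0.00928). CDKN3 differed by 0.34 (adjusted p = 7.67e-04), and both inhibitors lay below DMSO. In all tested genes, 24.9% differed between the inhibitors at this adjusted p. With library size as the only scale the 4 differences remained above 0, between 0.35 and 0.52. Groups of 3 libraries were too small to be searched for outlying samples.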

How the results depend on the processing

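The limits are the depth of CDKN1C (21 to 72 counts) and 3 libraries a group. The numbers of members called with YKL-5-124, samuraciclib and in the direct comparison (4, 3 and 0) became 1, 1 and 0 with glmTreat, a test against the fold threshold itself, 5, 6 and 4 by adjusted p alone, and 0 in each beyond a log2 fold change of 1. Library size as the only scale gave 1 in the direct comparison (CDKN2D, 0.52), beside 1235 of all genes (7.69%), and it moved the median of all genes by YKL-5-124 to 0.14. Leaving out 1 library gave 3 to 4, 3 to 3 and 0 to 1 called members, beside 3292 to 3617, 2662 to 2887 and 907 to 1093 of all genes. Calls among all genes were 1458, 982 and 71 with glmTreat, 7919, 7087 and 4003 by adjusted p alone, and 1248, 845 and 264 beyond 1. Without 1 library the change of CDKN2A with YKL-5-124 ranged from -0.093 to 0.17, of CDKN2D with YKL-5-124 from -0.0024 to 0.23, of CDKN1C with samuraciclib from -0.0095 to 0.31 and of CDKN1A in the direct comparison from -0.055 to 0.069. CDKN2D with YKL-5-124 also turned in the 6 libraries (-0.015), CCND1 with library size alone (0.077), and MDM2 with samuraciclib without the filter (-0.004), after thinning (-0.006) and on leaving out 1 library (-0.0226 to 0.0272). The cause was not tested. The 9 pairs of same-numbered libraries had r of -0.09 to 0.23 for their deviations, highest for samuraciclib 2 with YKL-5-124 2, both low in 7SL RNA like DMSO 3 (0.18 and 0.19 with these). Since not every pair passed 0.1, the number was not taken as a pairing, and with the replicate number as a block 4, 3 and 0 members and 3494, 2825 and 1101 genes were called. By CPM in place of TPM, CDKN2C ranked 5 and CDKN2D 6 in DMSO.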

Other observations

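For each CDK inhibitor gene, the 3 protein-coding genes of at least 10 CPM whose log2 CPM had the highest Pearson's r with it over the 9 libraries were found. The 9 libraries fall into 3 treatment groups, so r mostly describes which groups were high or low, and no p is given. PREP (0.985), KRT17 (0.983) and SESN3 (0.982) were most like CDKN1A. AIG1 (0.991), MRPL32 (0.988) and DHRS7 (0.985) were most like CDKN2B, and JPT1 (0.992), SARAF (0.991) and HNRNPLL (0.986) most like CDKN2C. For CDKN3 they were SERPINB1 (0.985), ZC3HC1 (0.985) and MPI (0.982). For CDKN1B they were ATF6B (0.973), INTS6 (0.971) and AARS2 (0.965), and for CDKN1C MED25 (0.96), CISD3 (0.947) and STK10 (0.927). ARTN (0.965), PGP (0.948) and AURKAIP1 (0.947) were most like CDKN2A, and DHX16 (0.952), SCOC (0.94) and HTATIP2 (0.909) most like CDKN2D. Ranked by Spearman's rho, at most 1 of the 3 genes stayed among the first 3 for 7 of the 8 members, so these names depend on the measure.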
